A study of Mus musculus with 8 samples.

Results

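The 10 genes described here encode the protein synthesis elongation factors Eef1a1, Eef1b2, Eef1d, Eef1g and Eef2, the eEF2 kinase Eef2k, the elongation factor-like scaffold Eef1e1, and Pabpc1, Tpt1 and Naca, whose mRNAs belong to the same class as those of the elongation factors. They were chosen by name, with earlier results of these data known but with no measured value in the rule, and are 10 of the 53242 genes in the deposited tables. RNA was sequenced from B cells isolated from the spleens of mice with a Cd23-cre transgene that were either Eif4a1 fl/fl, called 4A1 KO, or Eif4a1 +/+, called control, all 8 to 12 weeks old and on a C57BL/6 background. The cells had been activated for 24 h by IL4 (40 ng/ml) and a layer of CD40LB feeder cells irradiated with 120 Gy. The transgene, carried by both genotypes, is active from the immature B cells of the spleen onwards, the loxP sites flank exons 2 to 4 of Eif4a1, and CD40LB cells are mouse fibroblasts that express CD40 ligand and BAFF and were removed with magnetic beads after culture. Each genotype had 4 libraries from separate mice, with replicate 1 a male and replicate 2 a female of batch A, and replicate 3 a male and replicate 4 a female of batch B. The study left out both replicate 1 libraries because of reduced viability, so tests were run on replicates 2 to 4 (n = 3 per genotype) and repeated on all 8 libraries.

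During elongation, eEF1A (Eef1a1) brings aminoacyl-tRNA to the ribosome as a complex with GTP, the eEF1B complex recharges eEF1A with GTP, and eEF2 (Eef2) moves the ribosome along the mRNA by a codon. The mRNAs of elongation factors, of ribosomal proteins and of Pabpc1, Tpt1 and Naca are known as TOP mRNAs, because they begin with a C followed by an uninterrupted run of pyrimidines, the 5′ terminal oligopyrimidine tract. Through this tract, mTORC1 and the RNA-binding protein LARP1 control their translation and stability, and growth stimuli recruit them to polysomes. EIF4A1 is the RNA helicase of the cap-binding complex that loads ribosomes onto mRNAs. Of the 10 genes, 8 have an mRNA classically counted as a TOP mRNA, and Eef2k and Eef1e1 do not.

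Annotated transcript starts of these genes are shown because the tract defines the class. All 10 genes had at least 1 annotated transcript that starts with a C followed by 4 or more pyrimidines. The windows of 9 genes are given and hold 10 bases before the start and 20 bases from it, in the sense of the mRNA, with the tract in capitals (GENCODE M39 starts on GRCm39).
Eef1a1, chr9:78388992-78389021, minus strand: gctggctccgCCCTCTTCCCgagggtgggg
Eef1b2, chr1:63216278-63216307, plus strand: cgctctgggtCCTTTTTTTCCCTCagcgct
Eef1d, chr15:75781136-75781165, minus strand: ggcgccctccCTCTCCTTTgcagtcctgag
Eef1g, chr19:8944546-8944575, plus strand: acagccccacCCCCTTTCTCTgcggaatca
Eef2, chr10:81012470-81012499, plus strand: cgtcagcggtCTCTTCCgccgcagccgccg
Eef1e1, chr13:38842974-38843003, minus strand: gcaggccccgCCTCCCTaggagctgggcca
Pabpc1, chr15:36609198-36609227, minus strand: ggcggtgcttCCCCTTCTCCCCggcggtta
Tpt1, chr14:76082760-76082789, plus strand: cccgcgtcggCCTTTTCCgcccgctccccc
Naca, chr10:127871504-127871533, plus strand: ctcgctcgttCTCTTTCTgccgccatcttg
The tracts shown were between 7 bases (Eef2, Eef1e1) and 14 bases (Eef1b2) long. For each gene the annotated start with the longest tract was taken, and of all 149 annotated starts of the 10 genes 22 (14.8%) carried one. Of 11436 protein-coding genes tested on counts, 2890 (25.3%) had such a start, with a median of 9 annotated starts per gene against 16.5 for the 10 genes, and 3.16% of their starts carried a tract. The start of the transcript that the annotation names as canonical carried no tract in any of the 10 genes, against 3.89% of all, and it lay between 1 base (Pabpc1) and 826 bases (Eef1d) from the start shown. In the RefSeq promoter table of GRCm38.p6, which held 7 of the 10 genes, only Eef1a1 had a tract of at least 5 bases that began within 10 bases of the start, which is 14.3% of 7 against 26.8% of all symbols. Each start shown was chosen by tract length alone, and which start these B cells use was not measured. A tract shown may therefore lie outside the mRNA of these cells. Eef1e1, which is outside the classical TOP class, had a tract at 1 of 8 annotated starts.

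The canonical transcripts differed widely in the part before the start codon. This 5′ untranslated region was shortest in Eef1e1 (65 bases), Eef2 (96 bases) and Eef1a1 (120 bases) and longest in Eef1d (903 bases). Its median of 278.5 bases in the 10 genes stood beside 229 bases in all protein-coding genes tested, and its median GC content of 64.1% beside 65.0%. Tpt1 had the highest GC content of the 10, 75.2%, and Eef1a1 the lowest, 51.7%. All these values are taken from the canonical start, which lay 316 bases from the start shown in Tpt1 and 304 bases in Eef1b2. They do not describe the 5′ untranslated regions of transcripts that start at the tracts. For Naca and Eef1d the canonical transcript is a long form, with 6561 and 1980 coding bases, and the values below are sums over all isoforms.

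Between 31727557 and 43210858 reads were counted on genes per library. Eif4a1 itself had a CPM, the count scaled to library size, of 748 to 940 in control and of 556 to 689 in 4A1 KO over the 8 libraries, with no overlap, and fell by 0.44 ± 0.05 (SE) on the log2 scale. Its counts cover the whole gene, including exons outside the loxP sites. Markers of B cells summed to between 9811 and 13615 TPM, a measure scaled to library size and transcript length, in control and between 10150 and 14559 in 4A1 KO. Of the 8 markers, 5 fell and Cd74, which chaperones MHC class II, rose. Cd79b, Cd22 and Cd79a, parts of the B cell receptor complex and its coreceptor, passed the fold threshold too, with log2 fold changes of -0.89, -0.76 and -0.67, and the adaptor Blnk had a log2 fold change of -0.42. The 10 fibroblast markers of the feeder cells summed to between 3.31 and 17.1 TPM in control and between 4.69 and 9.83 in 4A1 KO, and Postn was at 0 in all 8 libraries. Of the 6 feeder markers tested, Col3a1, with at most 0.32 TPM, fell past the fold threshold, with a log2 fold change of -1.57 ± 0.57. Col1a2 and Col1a1 had values of -0.42 ± 0.33 and -0.41 ± 0.33 that did not pass, and the highest value of the 6 was 0.45. Control replicate 2 held the 17.1 TPM, against at most 6.41 in the other control libraries, and the median log2 difference of the feeder markers was -0.96 in pair 2 but 0.36, 0.47 and 0.48 in pairs 3, 4 and 1. The 6 T cell markers summed to at most 2.65 TPM, with Cd3g at 0 throughout, and Trac, the only marker of this list tested, had a log2 fold change of -0.34 ± 0.29 and did not pass. The 6 myeloid markers summed to between 10.5 and 15.2 TPM in control and between 15.6 and 18.4 in 4A1 KO, with S100a8 at 0 and no overlap of the sums. Of the 4 myeloid markers tested, with a median log2 fold change of 0.52, Adgre1 rose by 0.62 ± 0.15, past the fold threshold. Cd68 rose by 0.41 ± 0.13, and Lyz2 had a value of 0.65 ± 0.40 that did not pass. The lowest value of the 4 was -0.17. Their median log2 difference was 0.32, 0.15 and 0.78 in pairs 2, 3 and 4 but -0.26 in pair 1. The part of these other cells in the results below was not tested. In RNA of a cell population, fewer cells of a type and less RNA per cell cannot be told apart, and all values are shares of a library, so a change of the total RNA per cell would not be seen.

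At 24 h of activation, Tpt1, Eef1b2, Eef1a1, Eef1e1, Pabpc1 and Eef2 mRNA took on average a larger share of the 4A1 KO libraries than of the control libraries. Eef1d, Naca and Eef2k mRNA took a smaller share. By the quasi-likelihood test of edgeR, with p-values adjusted by Benjamini-Hochberg over 14218 genes, 6 of the 10 genes rose and 3 fell at an adjusted p under 0.05, and Eef1g did not pass. Of all genes tested, 26.3% rose and 26.7% fell at this threshold. Without the replicate block, 3 of the 10 genes rose (Tpt1, Eef1b2 and Eef1a1) and 2 fell (Eef1d and Naca), where 17.2% of all genes rose and 18.6% fell. Tpt1 alone also exceeded the study's fold threshold of 0.5 on the log2 scale, 1 of 10 in a table in which 11.6% of genes were called higher and 13.7% lower. The median log2 fold change of the 10 genes was 0.16, against 0.01 for all genes tested, and the range ran from -0.31 (Eef2k) to 0.67 (Tpt1). The 10 mRNAs did not move as a block, and among them only the estimate of Tpt1 was past the fold threshold.

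**Figure D1:**
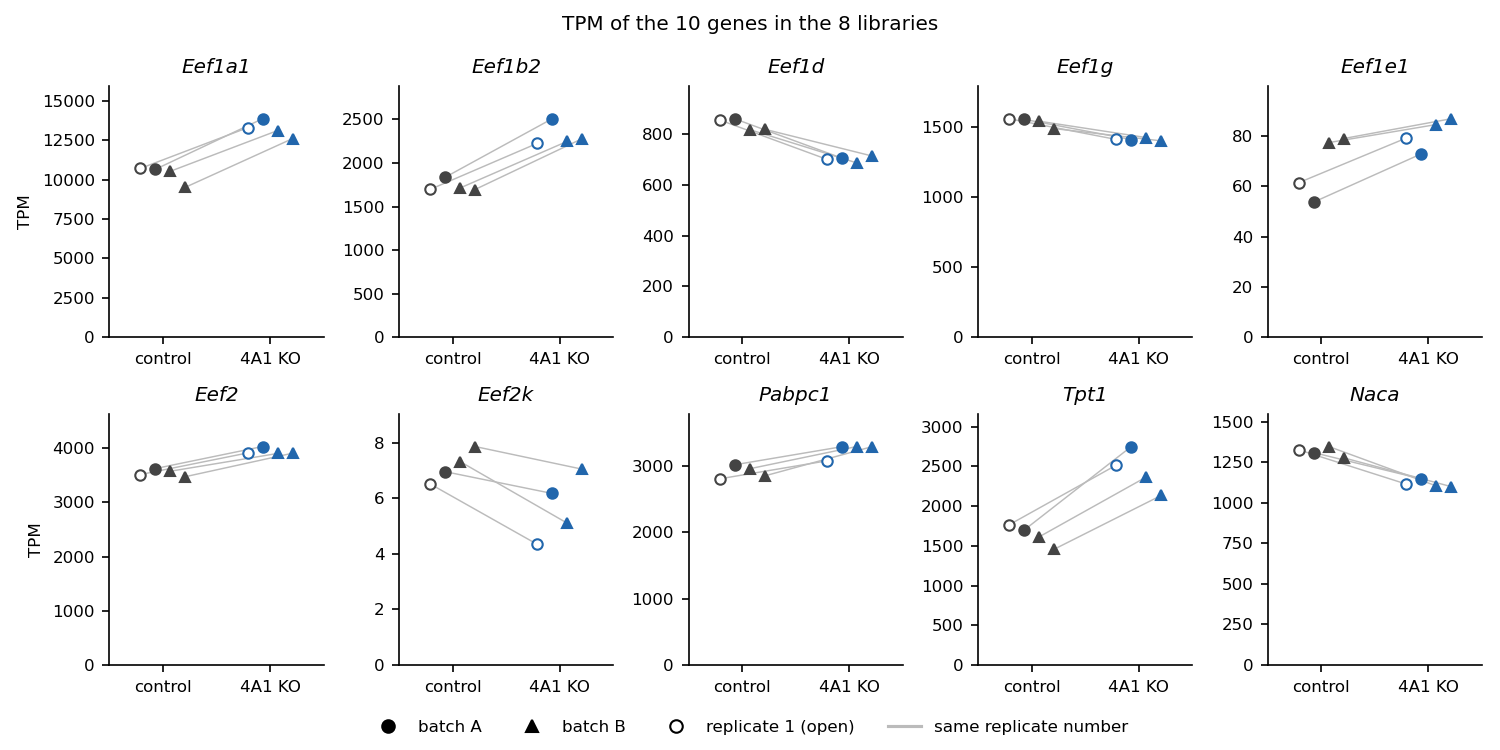
TPM (vertical axes, from 0) of each of the 10 genes in the 4 control (grey) and 4 4A1 KO (blue) libraries, with circles for batch A, triangles for batch B, open symbols for replicate 1 and lines between libraries of the same replicate number. The genotypes do not overlap for 8 genes, while Eef1e1 and Eef2k overlap.

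The levels of the 10 genes spanned more than 3 orders of magnitude. Per length, in TPM, Eef1a1 was highest in control, followed by Eef2, Pabpc1, Eef1b2, Tpt1, Eef1g, Naca, Eef1d, Eef1e1 and Eef2k. Among neighbours in this order, Eef1b2 overlapped with Tpt1 and Tpt1 with Eef1g across the 4 control libraries, and no other neighbours overlapped. In 4A1 KO the order was the same except that Tpt1 stood above Eef1b2, again with overlapping values, and Tpt1 no longer overlapped with Eef1g. Together the 10 genes took between 2.27% and 2.46% of all TPM in control and between 2.75% and 2.98% in 4A1 KO.

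Eef1a1 (chr9:78384916-78396778) encodes the factor that delivers aminoacyl-tRNA and is among the most abundant proteins of most cells. Its TPM in control replicates 1 to 4 were 10705, 10650, 10526 and 9510, and in 4A1 KO 13288, 13855, 13106 and 12596. Every 4A1 KO library was above every control library, and replicate 4 was the lowest of both genotypes. On counts, Eef1a1 rose by 0.37 ± 0.04 (log2 fold change ± SE), or 1.30-fold, with an edgeR adjusted p of 0.000135. The 4 pairs of libraries with the same number differed by between 0.31 and 0.43 on the log2 scale.

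Eef1b2, Eef1d and Eef1g encode the subunits of the eEF1B complex, and their mRNAs moved apart. Eef1b2 (chr1:63215940-63219645), a guanine nucleotide exchange subunit, had 1696, 1835, 1713 and 1696 TPM in control and 2225, 2508, 2248 and 2280 TPM in 4A1 KO. It was higher in each 4A1 KO library than in each control library. It rose by 0.46 ± 0.04 on the log2 scale, or 1.37-fold, with an edgeR adjusted p of 4.04e-05. Eef1d (chr15:75766054-75782564), the other exchange subunit, had 856, 860, 818 and 819 TPM in control and 701, 705, 686 and 714 TPM in 4A1 KO. Here each 4A1 KO library was below each control library, and the spread within a genotype was narrow. It fell by 0.25 ± 0.04 (SE) on the log2 scale with an edgeR adjusted p of 0.00173. Eef1g (chr19:8944369-8955843), the structural subunit, had 1560, 1556, 1542 and 1490 TPM in control and 1412, 1411, 1425 and 1402 TPM in 4A1 KO. The TPM did not overlap, but the log2 fold change on counts of -0.11 ± 0.04 had an edgeR adjusted p of 0.0505.

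The proportions of these mRNAs within a library show the same divergence. Eef1b2 stood at between 1.98 and 2.13 times the TPM of Eef1d in control and between 3.18 and 3.56 times in 4A1 KO. Against Eef1g it stood at between 1.09 and 1.18 in control and between 1.58 and 1.78 in 4A1 KO. The ratio of Eef1d to Eef1g moved least, from between 0.530 and 0.553 in control to between 0.481 and 0.509 in 4A1 KO. The sum of the 3 subunits was between 4004 and 4251 TPM in control and between 4338 and 4625 TPM in 4A1 KO. Eef1a1 stood at between 2.37 and 2.60 times this sum in control and between 2.87 and 3.06 times in 4A1 KO. These ratios are descriptions, built from the TPM given above.

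**Figure D2:**
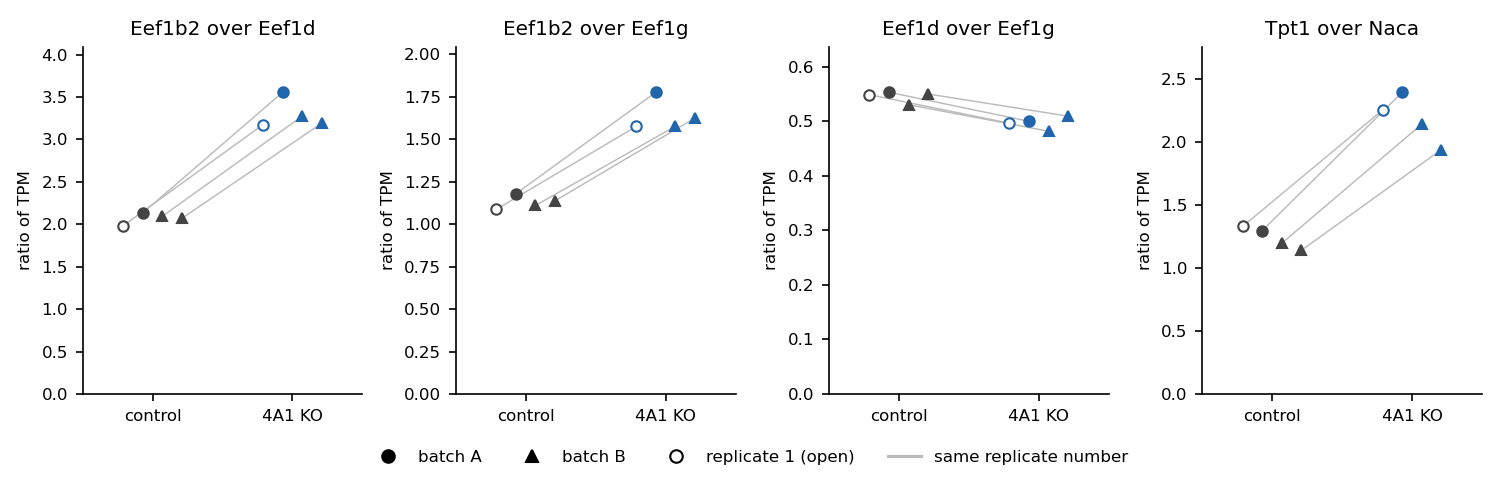
Ratios of TPM within each library (vertical axes, from 0) for pairs of eEF1B subunits and for Tpt1 over Naca, with symbols as in the plot of TPM by library. For all 4 ratios the 4 control and the 4 4A1 KO libraries do not overlap, with Eef1b2 over Eef1d between 1.98 and 2.13 in control and between 3.18 and 3.56 in 4A1 KO.

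Eef1e1 (chr13:38828183-38843034), also known as AIMP3, is a scaffold of the multi-tRNA synthetase complex that resembles elongation factor subunits. It had 61.5, 53.7, 77.4 and 79.0 TPM in control and 79.1, 72.9, 84.6 and 86.9 TPM in 4A1 KO. The batch B libraries were high in both genotypes, and the genotypes overlapped. It rose by 0.21 ± 0.07 on the log2 scale with an edgeR adjusted p of 0.0361. The difference between genotypes was 0.40 and 0.42 on the log2 scale in the batch A pairs and 0.08 and 0.12 in the batch B pairs. Without replicate 2, the batch A pair in the fit, the log2 fold change was 0.10 with an adjusted p of 0.246. In the 8 libraries the genotype effect was 0.31 ± 0.11 smaller in batch B than in batch A, with an unadjusted p of 0.0195 and an adjusted p of 1 in edgeR. Of the 10 genes, 0 passed this test after adjustment, and of all 14211 genes 2 (0.0141%) passed. Only Eef1e1 of the 10 had an unadjusted p under 0.05, and the share of all genes at that threshold was not determined.

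Eef2 (chr10:81012465-81018348), the translocase, and Eef2k, the calcium- and calmodulin-dependent kinase that phosphorylates and inhibits it, moved in opposite directions. Eef2 ranged from 3474 to 3623 TPM in the 4 control libraries and from 3902 to 4030 TPM in the 4 4A1 KO libraries, with no overlap. It rose by 0.16 ± 0.04 on the log2 scale, or 1.11-fold, with an edgeR adjusted p of 0.0111. Eef2k (chr7:120441877-120506674) was the least abundant of the 10 genes, with between 477 and 1091 counts per library. It had 6.52, 6.96, 7.32 and 7.86 TPM in control and 4.34, 6.17, 5.11 and 7.05 TPM in 4A1 KO. The 4A1 KO libraries of males, replicates 1 and 3, were the lowest, and replicate 4 of 4A1 KO lay within the control range. Eef2k fell by 0.31 ± 0.09 on the log2 scale with an edgeR adjusted p of 0.0182, and the call was lost without the replicate block (adjusted p = 0.0775) and without replicate 3 (log2 fold change -0.19, adjusted p = 0.168). The male pairs differed by -0.59 and -0.54 on the log2 scale and the female pairs by -0.21 and -0.18. In the 8 libraries the effect was 0.38 ± 0.13 lower (-0.38) in males than in females, with an unadjusted p of 0.0235 and an adjusted p of 1 in edgeR, while 1 gene of 14211 (0.00704%) passed that test after adjustment and Eef2k was the only 1 of the 10 genes with an unadjusted p under 0.05. The share of all genes at this unadjusted threshold was not determined. Per 1000 TPM of Eef2 there were between 1.86 and 2.26 TPM of Eef2k in control and between 1.11 and 1.80 in 4A1 KO.

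Pabpc1 (chr15:36595902-36609912) encodes the cytoplasmic poly(A)-binding protein, which binds mRNA tails and the cap-binding complex. It ranged from 2804 to 3016 TPM in control and from 3075 to 3292 TPM in 4A1 KO, with no overlap. It rose by 0.17 ± 0.04 on the log2 scale, or 1.13-fold, with an edgeR adjusted p of 0.00814. Its paralogue Pabpc4 had a log2 fold change of 0.07 ± 0.05 with an adjusted p of 0.222 (named here after its value was seen), and the ratio of Pabpc1 to Pabpc4 in TPM ranged from 6.33 to 6.88 in control and from 6.22 to 7.45 in 4A1 KO, with overlap.

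Tpt1 (chr14:76082454-76088170) encodes the translationally controlled tumour protein, a small cytosolic protein whose mRNA is a long-studied TOP mRNA. It had 1766, 1699, 1614 and 1457 TPM in control and 2517, 2751, 2368 and 2136 TPM in 4A1 KO. The lowest 4A1 KO library was above the highest control library, and in both genotypes batch A was above batch B. Tpt1 rose by 0.67 ± 0.04 on the log2 scale, or 1.59-fold, with an edgeR adjusted p of 1.45e-05, and the 4 pairs differed by between 0.61 and 0.70. Naca (chr10:127871337-127884537), the alpha subunit of the nascent polypeptide-associated complex at the ribosome exit, fell. It ranged from 1277 to 1347 TPM in control and from 1100 to 1148 TPM in 4A1 KO, with no overlap. Its log2 fold change was -0.21 ± 0.05 with an edgeR adjusted p of 0.00421. The ratio of Tpt1 to Naca was between 1.14 and 1.33 in control and between 1.94 and 2.40 in 4A1 KO.

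**Figure D3:**
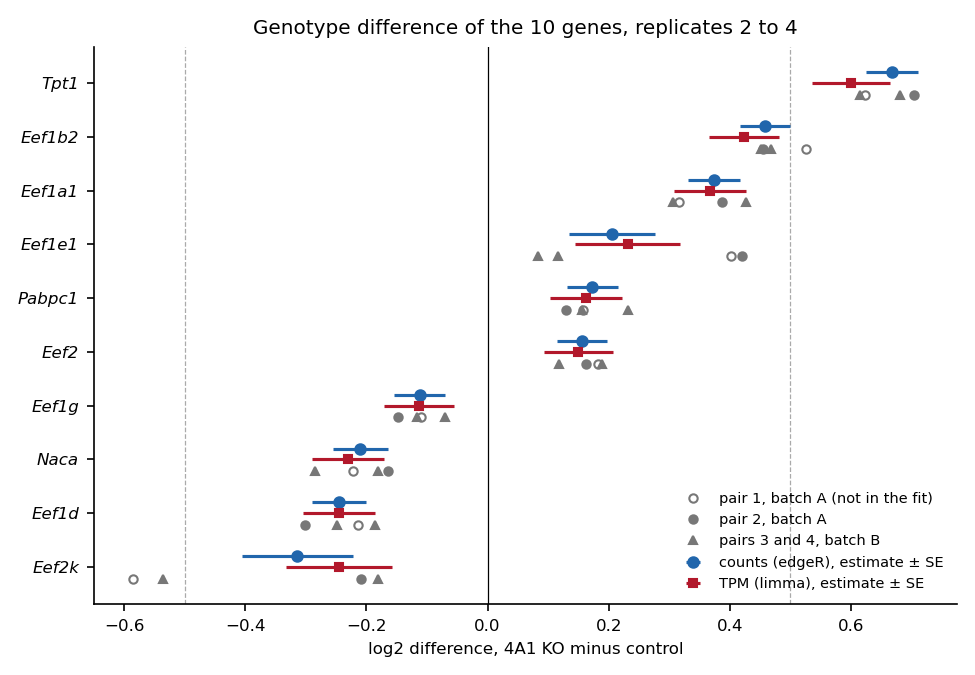
Difference between genotypes of the 10 genes on the log2 scale (horizontal axis, 4A1 KO minus control), with blue points for the edgeR estimate on counts and red squares for the limma estimate on TPM, each ± SE over replicates 2 to 4, and grey symbols for the 4 pairs of libraries. Dashed lines mark the fold threshold of 0.5, which the estimate exceeded for Tpt1 (0.67), and the pairs of Eef1e1 separate by batch.

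The deposited TPM were made from the same alignments with another tool and gave the same directions for all 10 genes. Over replicates 2 to 4, limma's test on log2(TPM + 1) with Benjamini-Hochberg adjustment over 12976 genes found 3 genes higher (Tpt1, Eef1b2 and Eef1a1) and 2 lower (Eef1d and Naca), where 22.3% and 24.9% of all genes were higher and lower. Leaving out any of the replicates 2 to 4 ended the calls of Eef1d and Naca, with limma adjusted p-values up to 0.111 and 0.145. The log2 fold change of Eef1d was then between -0.27 and -0.22, beside -0.25 before. That of Naca was between -0.25 and -0.20, beside -0.23. With all 8 libraries, limma passed 9 of the 10 genes, 6 higher and 3 lower, where 25.3% and 29.0% of all genes were higher and lower. The limma log2 fold changes of Tpt1, Eef1b2 and Eef1a1 were 0.60, 0.42 and 0.37. In all 8 libraries, 5 of the 10 genes were higher and 3 lower in 4A1 KO without any overlap in TPM, against 16.0% and 19.7% of the genes tested. In TPM, Eef2k and Eef1e1 overlapped, with p = 0.0857 and 0.114 in the two-sided exact permutation test over the 8 libraries (10 genes tested, not adjusted, pairs not kept). Values without overlap have the smallest p that 4 against 4 libraries allow in this exact test, 0.0286, so it adds nothing to the count of 8 genes. In CPM, Eef2k did not overlap either, with an exact p of 0.0286, while Eef1g overlapped, with an exact p of 0.0571, and Eef1e1 overlapped with an exact p of 0.229.

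The batches also differed in these mRNAs whatever the genotype. In the 8 libraries, Eef1e1 was higher in batch B than in batch A by 0.36 ± 0.07 on the log2 scale (edgeR adjusted p = 0.00432). Tpt1, Eef1b2 and Eef1a1 were lower in batch B, with log2 differences of -0.24, -0.16 and -0.14 and adjusted p-values of 0.00523, 0.0121 and 0.0229. These 4 of the 10 genes passed the test between batches, which 28.2% of all genes did. Between males and females, 0 of the 10 genes passed edgeR's test after adjustment, against 6.88% of all genes. Of the 10, 2 (Tpt1 and Eef2k) had an unadjusted p under 0.05. The share of all genes at the unadjusted threshold was not determined.

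Several of these genes have near-identical copies, mostly processed pseudogenes, and a read of the gene may have been counted on a copy or the reverse. Tpt1-ps3 (chr6:99854777-99855295) is 100% identical to Tpt1 over its length, had between 5478 and 10042 counts per library, and rose by 0.65 ± 0.05 on the log2 scale, close to the 0.67 of Tpt1. The copies of Tpt1 together held between 18.0% and 19.5% of the counts of Tpt1, but their share in TPM was larger. In control Tpt1-ps3 alone had between 776 and 937 TPM, beside 1457 to 1766 for Tpt1. In 4A1 KO it had between 1188 and 1461 TPM, beside 2136 to 2751 for Tpt1. Gm6863, a copy of Naca on chromosome 12 with 99.8% identity, fell by 0.26 ± 0.05 (SE) on the log2 scale, and the copies of Naca held between 15.4% and 18.2% of its counts. For Eef1g the share was between 13.6% and 14.9%, mostly on Gm4366 on chromosome 7, whose log2 fold change was -0.04 ± 0.05. Copies of Eef1a1 elsewhere in the genome held between 6.87% and 7.21% of its counts, led by Gm13456 on chromosome 2 with a log2 fold change of 0.37 ± 0.04. For the other 6 genes copies elsewhere held less than 1% of the counts. In TPM, Gm6863 had between 311 and 396, Gm4366 between 400 and 449 and Gm13456 between 924 and 1305 over the 8 libraries. The TPM levels and ratios above depend on how reads were split between genes and copies, which was not tested. Each gene's copies were then added to it, including those nested within the gene, such as Gm26377 in Eef1a1. With the nested copy, the share for Eef1a1 was between 9.93% and 10.4%. The log2 fold changes of Tpt1, Eef1a1, Naca and Eef1g were then 0.67, 0.38, -0.21 and -0.10. Eef1g again did not pass, with an edgeR adjusted p of 0.0751.

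Genes that share the tract or the task of the 10 genes were examined as lists, whose counts are to be read beside the 26.3% of all genes that rose and the 26.7% that fell. Of 17 other TOP mRNAs, 4 rose, 4 fell and 9 did not pass, which is near the shares of all genes, with a median log2 fold change of 0.01. Rack1, a scaffold on the small ribosomal subunit, rose by 0.35 ± 0.04, and Gas5, a noncoding RNA with a tract that hosts small nucleolar RNAs, rose by 0.53 ± 0.08 on the log2 scale. The initiation factor genes Eif3l and Eif4b fell, with log2 fold changes of -0.42 ± 0.05 and -0.38 ± 0.05. Of the 79 genes of cytosolic ribosomal proteins, 42 rose, 3 fell and 34 did not pass, with a median of 0.14. Rpl12, Rps12 and Rplp2 had the smallest p-values, with log2 fold changes of 0.88, 0.62 and 0.50. The range from -0.26 to 0.88 within the ribosomal proteins covers that of all the 10 genes but Eef2k.

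The lists of other parts of the elongation machinery are short, and in the first 3 of them 1 of 4, 1 of 6 and 2 of 14 genes passed in either direction. Of 4 other genes tested for cytosolic elongation factors and their partner Vars, the valyl-tRNA synthetase that binds eEF1, Eefsec, which brings selenocysteine to the ribosome, fell, with a log2 fold change of -0.18 ± 0.05, while Eif5a2 and Vars had values of -0.16 ± 0.08 and -0.05 ± 0.04 and did not pass. Of 6 termination and recycling factors, the release factor Etf1 rose by 0.26 ± 0.05, and Hbs1l and Gspt1 had values of -0.12 ± 0.05 and -0.08 ± 0.04 that did not pass. Of 14 enzymes that modify eEF1A or eEF2, Dph6, of the diphthamide pathway that modifies eEF2, rose by 0.45 ± 0.06. The lysine methyltransferase of eEF1A, Eef1akmt1, fell, with a log2 fold change of -0.65 ± 0.11, and Eef1akmt3, with under 1 CPM, had a value of 0.80 ± 0.31 that did not pass. Of 5 mitochondrial elongation factors, Tufm and Gfm1 fell, with log2 fold changes of -0.51 ± 0.07 and -0.25 ± 0.05, and Guf1 rose by 0.22 ± 0.07.

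Eef1e1, Pabpc1 and Naca each have a list of genes that are nearest by function. In the multi-tRNA synthetase complex, to which Eef1e1 belongs, 3 of 10 other genes rose and 4 fell, beside 26.3% and 26.7% of all genes. The leucyl- and isoleucyl-tRNA synthetases Lars and Iars rose by 0.58 ± 0.05 and 0.38 ± 0.04, and the glutaminyl-tRNA synthetase Qars fell, with a log2 fold change of -0.38 ± 0.05. Of 11 genes for proteins that bind poly(A) or TOP mRNAs or act with them, 6 rose, 1 fell and 4 did not pass, with a median of 0.31. Larp4b, Paip1, Pan3 and Larp1 rose past the fold threshold, with log2 fold changes of 0.75, 0.67, 0.59 and 0.52. LARP1 binds the cap and the tract of TOP mRNAs, PAIP1 binds PABPC1, and PAN3 is part of a deadenylase that shortens poly(A) tails. Among 5 partners of Naca at nascent chains, the chaperone Hspa8 fell from 2654 ± 275 CPM in control to 1314 ± 226 in 4A1 KO (mean ± SD, n = 3), a log2 fold change of -1.02 ± 0.06. Dnajc2 and Btf3l4 rose by 0.42 ± 0.05 and 0.51 ± 0.08. Btf3, the usual beta subunit beside Naca and itself a TOP mRNA, had a log2 fold change of 0.01 ± 0.04 and is named here after its value was seen.

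**Figure D4:**
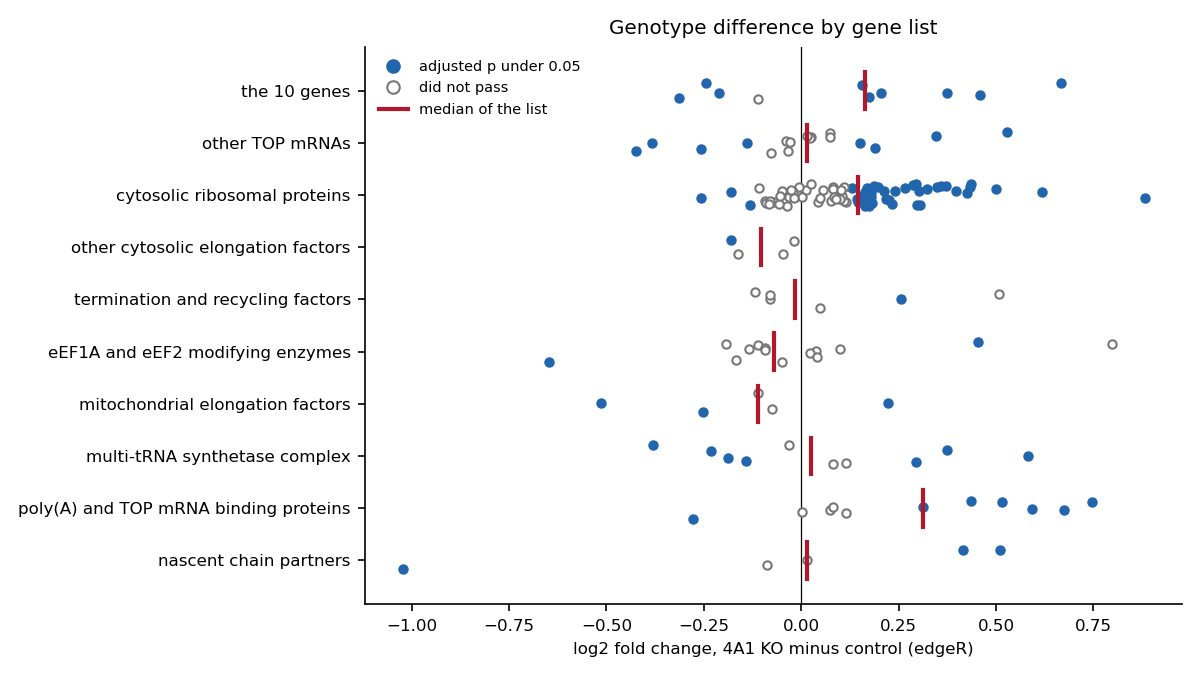
Log2 fold change between 4A1 KO and control (horizontal axis, edgeR on counts, replicates 2 to 4) of each gene tested in the 10 genes and in 9 related lists, filled where the adjusted p was under 0.05, with a red bar at each list's median. The median was 0.16 for the 10 genes, 0.14 for the ribosomal proteins, 0.01 for the other TOP mRNAs and 0.31 for the poly(A) and TOP mRNA binding proteins.

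The genes whose pattern over the 8 libraries was most like that of the 8 classical TOP mRNAs were sought among 8215 genes outside the lists with a mean of at least 10 CPM. By Pearson's r with the mean standardised log2 CPM, these were Bbip1 (0.983), Rps3a3 (0.979), Fundc2 (0.976), Vti1b (0.974) and Gm10443 (0.973). Of the 5, only Vti1b passed the test between genotypes, with a log2 fold change of 0.19. The libraries share batch, sex and depth, and 8 points of 2 genotypes make such r values a description only.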

How the data were processed

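The authors trimmed reads with Trim Galore 0.6.6, mapped them to GRCm39 with HISAT2 2.1.0 and deposited raw counts from Seqmonk, summed strand-specifically over merged isoforms, and TPM from StringTie 2.1.1. How they treated reads with several matches is not given in the sources used here.

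The counts were fitted in edgeR 4.0.16 under R 4.3.3 (TMM, filterByExpr by genotype, quasi-likelihood test, batch and sex as covariates) and TPM with limma 3.58.1 on log2(TPM + 1), for genes with a mean TPM of at least 1. Tests are two-sided with Benjamini-Hochberg adjustment over all genes, and the thresholds are an adjusted p of 0.05 and, where named, an absolute log2 fold change of 0.5. CPM are scaled by TMM. In replicates 2 to 4 batch and sex together equal the replicate number as a block. Same-numbered libraries come from the same batch and sex per the labels, and their deviations from the genotype means correlated across genes, with r of 0.594, 0.502 and 0.432. Values are from single cultures of separate mice, and SD covers the spread between them. SE is that of the fit, in edgeR derived from the log2 fold change and the test statistic. With batch and sex as covariates, it leaves out differences shared by libraries of a replicate number. Without the replicate block the SE on counts was 0.11 rather than 0.04 for Tpt1 and 0.16 rather than 0.07 for Eef1e1.

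Of 53242 gene identifiers, 52647 matched GENCODE M39, which gave coordinates and transcript starts. Copies were transcripts at least 90% identical to a transcript of the 10 genes over at least 50% of their length. The tract search, on the mRNA strand only, asked for a C followed by at least 4 C or T from an annotated start. The start window of the remaining gene is not reported here. The RefSeq starts were the planned source, and the GENCODE starts and transcript parts were an addition made once the data had been seen. The 10 genes and all lists were chosen with earlier results of these data known. Named beside the 10 genes are the 3 genes with the smallest edgeR p of each list, any called gene of a list, the 5 most similar genes, copies, and Eif4a1, with Btf3 and Pabpc4 outside this rule. Of the copies, those that hold most counts are named.

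The alternatives were DESeq2 1.42.0 with and without shrinkage, DESeq2's size factors, TMM factors without TOP genes, no filter, no replicate block, all 8 libraries, each replicate left out, copies added, and for TPM another pseudocount (0.1) and no filter. On simulated counts of 14065 genes, 200 of them changed by 1 on the log2 scale, edgeR recovered 170 with 10 false calls. On simulated TPM of 12877 genes limma recovered 138 of 200 with 4 false calls.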

Additional observations from a re-analysis of the deposited data

How the results depend on the processing

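The direction of all 10 genes was the same in counts and in TPM under each alternative. On counts, Tpt1, Eef1b2, Eef1a1, Eef1d and Naca stayed past an adjusted p of 0.05 under all 12 alternatives, Eef2 and Pabpc1 under 11, Eef2k and Eef1e1 under 10, and Eef1g passed under 6. Without the replicate block, 3 genes rose rather than 6, since Eef2, Pabpc1 and Eef1e1 had edgeR adjusted p-values of 0.0744, 0.0515 and 0.390. In the same fit 2 rather than 3 fell, since the adjusted p of Eef2k was 0.0775, and 17.2% of all genes rose and 18.6% fell. In TPM, limma called 5 of the 10 genes, 3 higher and 2 lower, where 22.3% of all genes were higher and 24.9% lower. In all 8 libraries it called 9, of which 6 were higher, where 25.3% of all genes were higher and 29.0% lower. Leaving out replicate 2, 3 or 4, each of which leaves 2 libraries per genotype, it called 3 genes each time, all higher, and 0 lower, where 10.7% to 17.3% of all genes were higher and 14.1% to 19.1% lower. In these limma fits 1 or 2 of the 10 genes were lower at an unadjusted p under 0.05, a threshold at which the share of all genes was not determined. Eef1d and Naca had limma adjusted p-values up to 0.111 and 0.145 in the same fits. Over all genes, with the fold threshold of 0.5 applied beside the adjusted p, DESeq2 with normal shrinkage called 1088 genes higher and edgeR 1647. Other alternatives moved a called count of the 10 genes by no more than 1.5 times. Eef2k had the fewest counts, 676 to 1091 per library in replicates 2 to 4, and the largest SE of the 10 genes on counts, 0.09 on the log2 scale.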
